A study of Homo sapiens with 5 samples.

Results

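The genes of cholesterol and fatty acid synthesis, with the sterol-sensing machinery that drives their transcription, were examined in TOV21G cells and in clones of this line that resist an EZH2 inhibitor. The set held 32 genes, listed by symbol with earlier results of these data known, and 31 of them had a row among the 30476 gene identifiers of the count table (ACACA had no matching row). The members were divided into 8 genes of the mevalonate pathway, 11 of late sterol synthesis, 6 of the sterol regulatory element-binding protein (SREBP) system and 6 of fatty acid synthesis. TOV21G is a line of ovarian clear cell carcinoma in which ARID1A is mutated. GSK126 inhibits EZH2, which methylates histone H3 within PRC2. The EZH2 inhibitor-resistant (EIR) clones had been selected from it in GSK126 raised in steps from 5 to 10, 15 and 20 uM, and were picked once stable at the last concentration.

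RNA-seq of total RNA gave 5 libraries. Parental cells without GSK126 were profiled in 1 library, untreated EIR clones 3 and 4 in 1 library each, and the same clones treated with GSK126 in 1 library each. The labels name neither a dose nor a time for the treated cultures. All 5 libraries therefore share the ARID1A-mutated background of 1 cell line, and the EIR libraries represent 2 picked clones. The libraries held 25479238 to 30764963 estimated counts. Keratin genes KRT8 and KRT18 and the Müllerian factor PAX8 were abundant in all 5 libraries (3083 to 18326 normalized counts), and COL1A1, COL3A1, DCN and PTPRC, which mark fibroblasts and leukocytes, had at most 91.7. The epithelial marker EPCAM had 401 normalized counts in parental cells, 394 and 492 in clone 3, and 0 and 1.06 in clone 4. CDH1, encoding E-cadherin, had 6.04 in parental cells, 99.99 and 146 in clone 3, and 2.03 and 4.23 in clone 4. In bulk RNA, fewer cells expressing a gene and less RNA per cell cannot be told apart.

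Cholesterol is built from acetyl-CoA through mevalonate, isoprenoid diphosphates, squalene and lanosterol. Fatty acids are built from the same acetyl-CoA by carboxylation, chain synthesis, elongation and desaturation. Transcription of both sets of enzymes is driven by SREBPs, membrane-bound transcription factors that SCAP escorts from the endoplasmic reticulum to the Golgi for cleavage when sterols are low. INSIG proteins hold SCAP back when sterols are high.

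Most members were lower in EIR cells than in parental cells. With DESeq2 (two-sided Wald test, Benjamini-Hochberg adjusted p under 0.05 over all genes tested), 19 of the 31 members fell and 1 rose in the 4 EIR libraries against the parental library. Over all 16288 genes tested, 13.2% were called lower and 12.4% higher. The median log2 fold change of the members was -0.90, against 0.0025 over all genes tested. In 26 of 31 members all 4 EIR libraries lay below the parental library, which was so for 36.6% of all genes tested, and in 4 members all 4 lay above it, as for 33.4% of all genes. These 4 were GGPS1, SC5D, INSIG2 and ELOVL6. HMGCS1 was the one member with EIR libraries on both sides of the parental value.

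By branch, median log2 fold changes were -0.87 for the mevalonate pathway, -0.61 for late sterol synthesis, -0.66 for the SREBP system and -1.13 for fatty acid synthesis. In the mevalonate pathway 6 of 8 genes fell, in late sterol synthesis 6 of 11 fell and 1 rose, in the SREBP system 3 of 6 fell, and in fatty acid synthesis 4 of 6 fell. FADS2 and SCD stood furthest from the parental level.

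**Figure D1:**
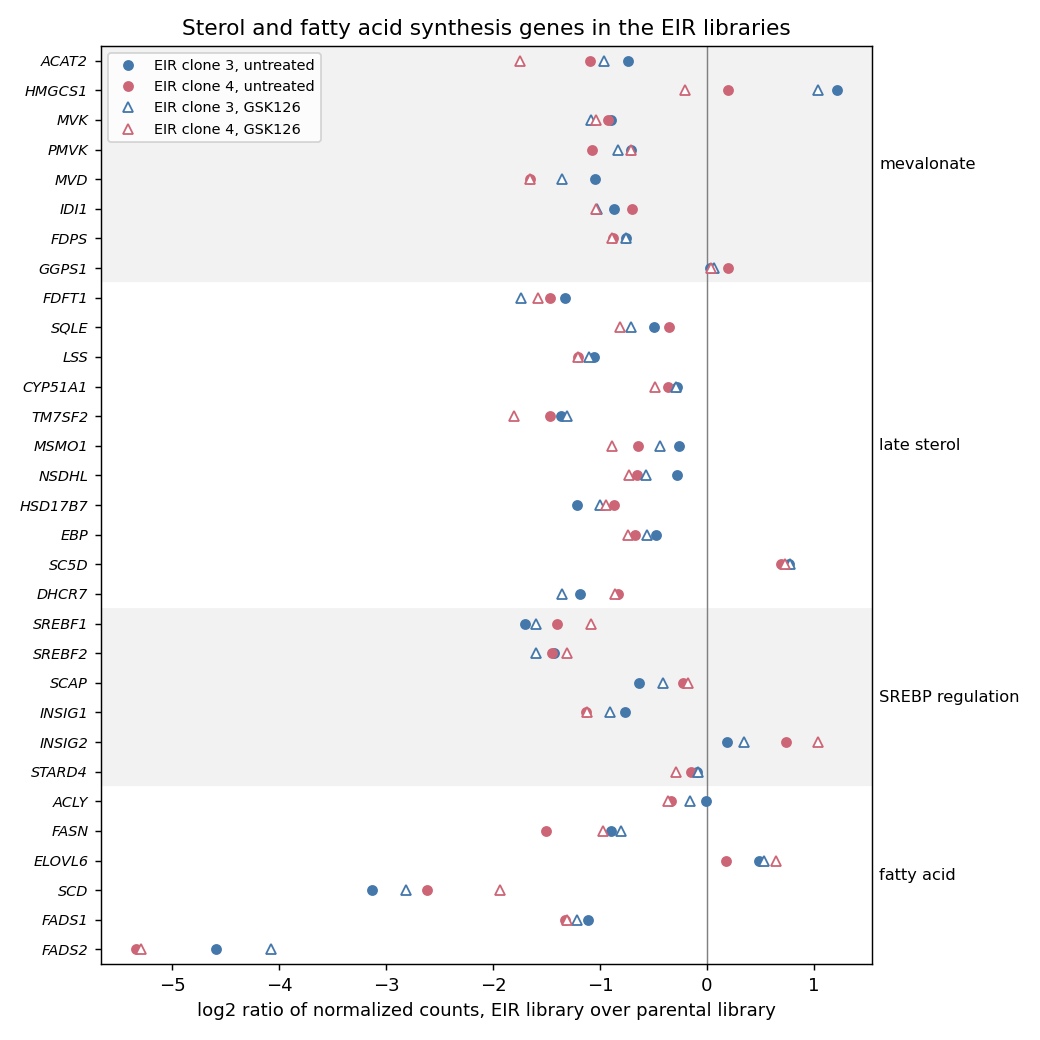
Log2 ratio of normalized counts of each EIR library to the parental library (x axis) for the 31 members (y axis), arranged by branch. Circles are untreated and triangles GSK126-treated libraries, with clone 3 in blue and clone 4 in red. In 26 members all 4 points lie left of 0, and FADS2 and SCD lie furthest to the left.

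The test rests on a single parental library, so the spread came from the EIR libraries, and those of 1 clone share their cells. With each clone summed into 1 library, 15 members were called, and 12 were called in DESeq2 and in all 11 alternatives: MVD, IDI1, FDPS, FDFT1, LSS, TM7SF2, SREBF1, SREBF2, INSIG1, SCD, FADS1 and FADS2. How many of all genes were called in every fit was not counted.

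SREBF1 encodes the SREBP best known for fatty acid genes, and it lies on the minus strand at chr17:17713713-17740316 (hg19). It had 1942 normalized counts in parental cells, 596 and 732 in untreated clones 3 and 4, and 639 and 915 in the same clones under GSK126. The parental value was more than any EIR value, by 2.12-fold over the highest of them. The mean of the EIR libraries was 721 ± 141 normalized counts (SD, n = 4). The log2 fold change was -1.43 ± 0.30 (SE, adjusted p = 4.1e-05).

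SREBF2 encodes the SREBP best known for cholesterol genes, and it lies on the plus strand at chr22:42229109-42303310 (hg19). Parental cells had 3138 normalized counts, untreated clones 3 and 4 had 1166 and 1146, and the GSK126-treated clones had 1035 and 1267. The 4 EIR libraries lay close together and well below the parental library. The log2 fold change was -1.44 ± 0.19 (SE, adjusted p = 6.32e-12), and the EIR mean was 1154 ± 95.4 normalized counts (SD, n = 4).

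INSIG1, an endoplasmic reticulum anchor of SCAP and itself an SREBP target, had 1520 normalized counts in parental cells and 892, 696, 812 and 698 in untreated clones 3 and 4 and treated clones 3 and 4. Its log2 fold change was -0.97 ± 0.24 (SE, adjusted p = 0.000495). INSIG2, its homologue, had 448 normalized counts in parental cells, 509 and 569 in clone 3, and 749 and 919 in clone 4. All EIR values of INSIG2 exceeded the parental one, clone 4 most, but the difference over the 4 libraries did not pass the test (log2 fold change 0.62 ± 0.39, SE, adjusted p = 0.255).

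SCAP, the escort protein, had 1125 normalized counts in the parental library and 722 to 992 in the EIR libraries (log2 fold change -0.35 ± 0.26, SE, adjusted p = 0.338). STARD4, a carrier of sterols between membranes, had 2989 in parental cells and 2450 to 2814 in EIR cells (log2 fold change -0.15 ± 0.17, SE, adjusted p = 0.566). Neither passed the test. Both genes for SREBPs and INSIG1 therefore made up the 3 members of this branch that fell.

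Promoter sequence was examined for the motifs through which SREBPs and their partner NF-Y bind. RefSeq windows of 250 bases before to 50 after each start (GRCh38.p14, a newer build than the hg19 of the counts) matched 27 members in 37 windows. CCAAT, the NF-Y box, was searched on both strands and lay in 23 of these windows (62.2%) and in 34.6% of all 35116 windows. At least 2 CCAAT boxes lay in 40.5% of member windows and in 10.8% of all windows. The members with a CCAAT box, 20 of 27, included SC5D, which rose. They also included HMGCS1, GGPS1, MSMO1, NSDHL, STARD4 and ACLY, which did not pass the test between EIR and parental cells. Whether the box goes with the falls was not tested. TCACNCCAC, a form of the sterol regulatory element, lay in 1 member window, that of SREBF2, and in 1.13% of all windows. The E-box-like form TCACNTGA lay in 2 member windows, of EBP and INSIG1, and in 3.79% of all windows. The following stretches hold these matches in members that fell in every alternative, and they are given on the gene's strand from 5′ to 3′ with the matches in capitals. SREBF2 (chr22:41832962-41833013, plus strand) carries the sterol regulatory element form followed by a reversed CCAAT box, INSIG1 (chr7:155297698-155297839, plus) a reversed CCAAT box and the E-box-like form, SCD (chr10:100346994-100347061, plus) 2 CCAAT boxes, MVD (chr16:88663162-88663260, minus) 3 CCAAT boxes on both strands, and FDPS (chr1:155308680-155308829, plus) 3 likewise.
SREBF2: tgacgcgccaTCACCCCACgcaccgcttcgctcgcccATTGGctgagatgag
INSIG1: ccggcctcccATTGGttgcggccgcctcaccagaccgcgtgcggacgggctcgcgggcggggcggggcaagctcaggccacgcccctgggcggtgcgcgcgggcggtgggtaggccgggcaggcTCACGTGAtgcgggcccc
SCD: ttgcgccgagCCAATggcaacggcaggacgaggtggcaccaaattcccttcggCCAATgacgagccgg
MVD: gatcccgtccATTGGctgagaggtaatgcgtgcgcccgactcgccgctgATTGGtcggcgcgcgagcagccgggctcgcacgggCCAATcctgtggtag
FDPS: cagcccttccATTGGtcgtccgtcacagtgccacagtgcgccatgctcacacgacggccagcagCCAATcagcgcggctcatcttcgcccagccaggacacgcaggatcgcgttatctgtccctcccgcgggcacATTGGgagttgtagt
A match of these letters is a description of the sequence, and binding was not measured here.

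The mevalonate pathway was lower at most of its steps. ACAT2, the acetoacetyl-CoA thiolase that opens the pathway, had 2369 normalized counts in parental cells, 1417 and 1108 in untreated clones 3 and 4, and 1215 and 704 in the treated clones. Treated clone 4 was the lowest and every EIR library was below parental. The log2 fold change was -1.09 ± 0.39 (SE, adjusted p = 0.0253), and the call was lost in edgeR (adjusted p = 0.0924), with the treatment covariate (log2 fold change -0.91, adjusted p = 0.16) and without the untreated library of clone 4 (adjusted p = 0.0572). ACAT2 overlaps TCP1, a far more abundant gene on the opposite strand, by 454 bases of exon, and no source used here says whether reads were counted by strand.

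HMGCS1, the cytosolic HMG-CoA synthase, did not follow its branch. Its normalized counts were 2474 in parental cells, 5727 and 5089 in untreated and treated clone 3, and 2831 and 2150 in untreated and treated clone 4. Clone 3 was high in both libraries, and clone 4 lay on either side of the parental value. Over the 4 EIR libraries the log2 fold change was 0.67 ± 0.54 (SE, adjusted p = 0.385).

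MVK, mevalonate kinase, was the least abundant member per kilobase of transcript, with 178 normalized counts in the parental library and 84.0 to 95.4 in EIR libraries (log2 fold change -0.99 ± 0.33, SE, adjusted p = 0.0156). PMVK, phosphomevalonate kinase, had 335 in parental cells and 159 to 205 in EIR cells (log2 fold change -0.83 ± 0.29, SE, adjusted p = 0.023). Their EIR values did not overlap the parental one. Both calls were lost when any 1 of the 4 EIR libraries was left out.

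MVD, the decarboxylase that makes isopentenyl diphosphate, fell furthest in this branch before correction for GC content. Parental cells had 958 normalized counts, untreated clones 3 and 4 had 462 and 303, and the treated clones had 374 and 305. Clone 4 was lower than clone 3 in each condition, and both were far below parental. The difference between the clones did not pass the DESeq2 test within the EIR libraries (adjusted p = 0.44). The log2 fold change was -1.41 ± 0.33 (SE, adjusted p = 0.000253). With the GC correction described below it was -0.92, against -1.13 for IDI1 and -1.11 for ACAT2.

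IDI1, the isomerase that follows, had 2437 normalized counts in parental cells, 1333 and 1494 in untreated clones 3 and 4, and 1193 and 1188 in the treated clones (log2 fold change -0.90 ± 0.22, SE, adjusted p = 0.000403). FDPS, farnesyl diphosphate synthase, had 7079 in parental cells and 3829 to 4199 in EIR cells (log2 fold change -0.82 ± 0.15, SE, adjusted p = 2.34e-06). The EIR values of FDPS were tightly grouped, at 4016 ± 203 normalized counts (SD, n = 4). GGPS1, which diverts farnesyl diphosphate to geranylgeranyl diphosphate for protein prenylation, had 940 in parental cells and 956 to 1079 in EIR cells (log2 fold change 0.08 ± 0.18, SE, adjusted p = 0.78).

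In late sterol synthesis the lowest log2 fold change was at its entry. FDFT1, squalene synthase, commits farnesyl diphosphate to sterols and lies on the plus strand at chr8:11653082-11696904 (hg19). It had 4501 normalized counts in parental cells, 1797 and 1626 in untreated clones 3 and 4, and 1345 and 1501 in the treated clones. The parental library was 2.5-fold above the highest EIR library. Its log2 fold change was -1.52 ± 0.23 (SE, adjusted p = 1.3e-09), while SQLE, squalene epoxidase at the next step, had 3330 in parental cells and 1900 to 2603 in EIR cells (log2 fold change -0.58 ± 0.25, SE, adjusted p = 0.0653) and did not pass the test.

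LSS, lanosterol synthase, had 1725 normalized counts in parental cells, 831 and 748 in untreated clones 3 and 4, and 802 and 749 in the treated clones. These 4 values differed little from each other (783 ± 41.3, SD) and lay far below the parental one, with a log2 fold change of -1.14 ± 0.18 (SE, adjusted p = 5.62e-09). TM7SF2, a sterol reductase acting after lanosterol demethylation, had 720 in parental cells, 279 and 260 in untreated clones 3 and 4, and 290 and 206 in the treated clones. No EIR value came near the parental one (log2 fold change -1.48 ± 0.29, SE, adjusted p = 7.38e-06).

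HSD17B7, a ketosteroid reductase of the demethylation complex, had 490 normalized counts in the parental library and 210 to 269 in EIR libraries (log2 fold change -1.003 ± 0.26, SE, adjusted p = 0.00127). DHCR7, the last reductase on the route to cholesterol, had 1126 in parental cells, 493 and 440 in clone 3, and 631 and 620 in clone 4 (log2 fold change -1.04 ± 0.30, SE, adjusted p = 0.00321). EBP, a sterol isomerase, had 1367 in parental cells and 821 to 979 in EIR cells (log2 fold change -0.61 ± 0.20, SE, adjusted p = 0.0116). The EBP call was lost in edgeR (adjusted p = 0.056), and those of EBP and HSD17B7 were lost with each clone summed. Without the untreated library of clone 4, or without the treated library of clone 3, EBP was not called.

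CYP51A1, lanosterol demethylase, had 6355 normalized counts in the parental library and 4537 to 5221 in EIR libraries (log2 fold change -0.35 ± 0.17, SE, adjusted p = 0.101). MSMO1 and NSDHL, enzymes that remove methyl groups from the sterol ring, had log2 fold changes of -0.54 ± 0.30 (SE, adjusted p = 0.181) and -0.55 ± 0.27 (SE, adjusted p = 0.12). All 4 EIR libraries lay below parental in each of the 3 genes, and none passed the test over the 4 libraries. CYP51A1, EBP and GGPS1 overlap other protein-coding entries on the same strand in GENCODE 44, and none of those entries has a row here. Pseudogene copies of HSD17B7 and FDPS held at most 54 and 48 estimated counts each over the 5 libraries, against 1465 and 23202 of the genes themselves, and the copies of IDI1 and SCD have no row here.

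SC5D, a sterol desaturase near the end of the route, was the single member that rose. Its normalized counts were 439 in parental cells, 748 and 710 in untreated clones 3 and 4, and 750 and 729 in the treated clones. The EIR values were almost the same in every library (734 ± 18.8, SD, n = 4) and above parental, with a log2 fold change of 0.74 ± 0.18 (SE, adjusted p = 0.000398). With the correction for GC content described below the log2 fold change was 0.23 ± 0.21 (SE, adjusted p = 0.482) and the call was lost, as it was with each clone summed.

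Fatty acid synthesis held the 2 largest changes of the set, both in desaturases. FADS2, the front-end desaturase that starts polyunsaturated fatty acid synthesis, lies on the plus strand at chr11:61560452-61634826 (hg19). It had 7513 normalized counts in parental cells, 311 and 185 in untreated clones 3 and 4, and 445 and 191 in the treated clones. The parental library exceeded the highest EIR library 16.9-fold and the lowest 40.6-fold. The log2 fold change was -4.73 ± 0.50 (SE, adjusted p = 1.69e-18). Per kilobase of transcript FADS2 ranked 4 of 31 members in parental cells (2430 normalized counts per kb) and 30 in EIR cells (91.6).

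FEN1, a DNA repair gene that overlaps FADS2 by 49 bases of exon on the same strand, ranged from 1964 to 2290 normalized counts in EIR cells against 2129 in parental cells (log2 fold change -0.01 ± 0.18, SE, adjusted p = 0.97). FADS1, the second front-end desaturase, lies next to FADS2 on the opposite strand, and their exons overlap by 490 bases. FADS1 had 4333 normalized counts in parental cells, 2002 and 1723 in untreated clones 3 and 4, and 1863 and 1747 in the treated clones. Its EIR values were close to each other and well below parental (log2 fold change -1.24 ± 0.17, SE, adjusted p = 1.06e-10).

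SCD, stearoyl-CoA desaturase, makes monounsaturated fatty acids and lies on the plus strand at chr10:102106990-102124583 (hg19). Its normalized counts were 25035 in parental cells, 2853 and 4084 in untreated clones 3 and 4, and 3555 and 6553 in the treated clones. Parental cells were 3.82-fold above the highest EIR library and 8.77-fold above the lowest, and treated clone 4 was the highest of the EIR libraries. The log2 fold change was -2.55 ± 0.44 (SE, adjusted p = 3.35e-07). Per kilobase, SCD ranked 2 in parental cells (4773 normalized counts per kb) and 4 in EIR cells (812).

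FASN, fatty acid synthase, had 4402 normalized counts in parental cells, 2369 and 1547 in untreated clones 3 and 4, and 2523 and 2247 in the treated clones. The EIR values did not overlap the parental one (log2 fold change -1.02 ± 0.31, SE, adjusted p = 0.00741), and the call was lost in edgeR (adjusted p = 0.0611). ACLY, which supplies cytosolic acetyl-CoA from citrate, had 11498 in parental cells and 8938 to 11399 in EIR cells (log2 fold change -0.21 ± 0.21, SE, adjusted p = 0.512). ELOVL6, an elongase of saturated chains, had 642 in parental cells and 726 to 1001 in EIR cells (log2 fold change 0.47 ± 0.26, SE, adjusted p = 0.172).

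**Figure D2:**
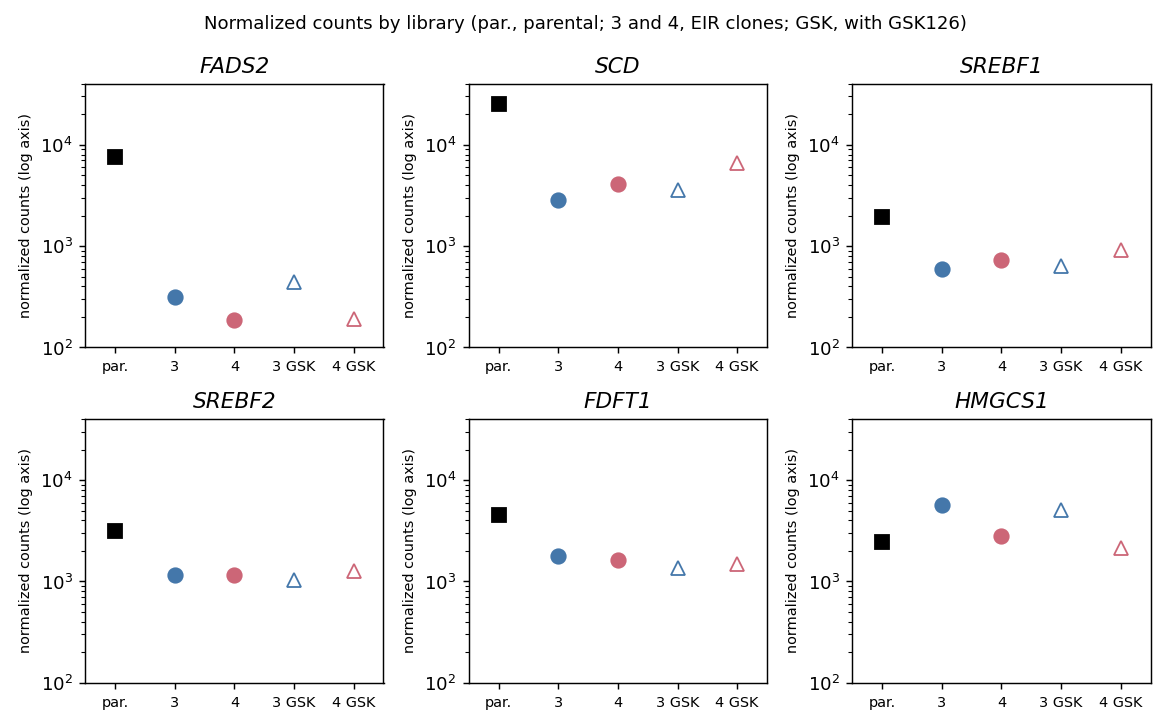
Normalized counts (log axis) of FADS2, SCD, SREBF1, SREBF2, FDFT1 and HMGCS1 in each of the 5 libraries, 1 point per library. The parental square is above all EIR points in the first 5 genes, while in HMGCS1 both clone 3 points are above it and the clone 4 points lie on either side.

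Per kilobase of transcript, the 31 genes summed to 32405 normalized counts per kb in the parental library. The EIR libraries had 16572 ± 1009 (SD, n = 4), which is 51.1% of the parental level. The sums of the mevalonate pathway, late sterol synthesis and the SREBP system in EIR cells were 60.5%, 58.5% and 63.2% of parental. That of fatty acid synthesis was 35.1%, or 47.9% with SCD left out and 72.9% with SCD and FADS2 left out, above the other branches. No EIR library reached the parental sum in any branch.

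**Figure D3:**
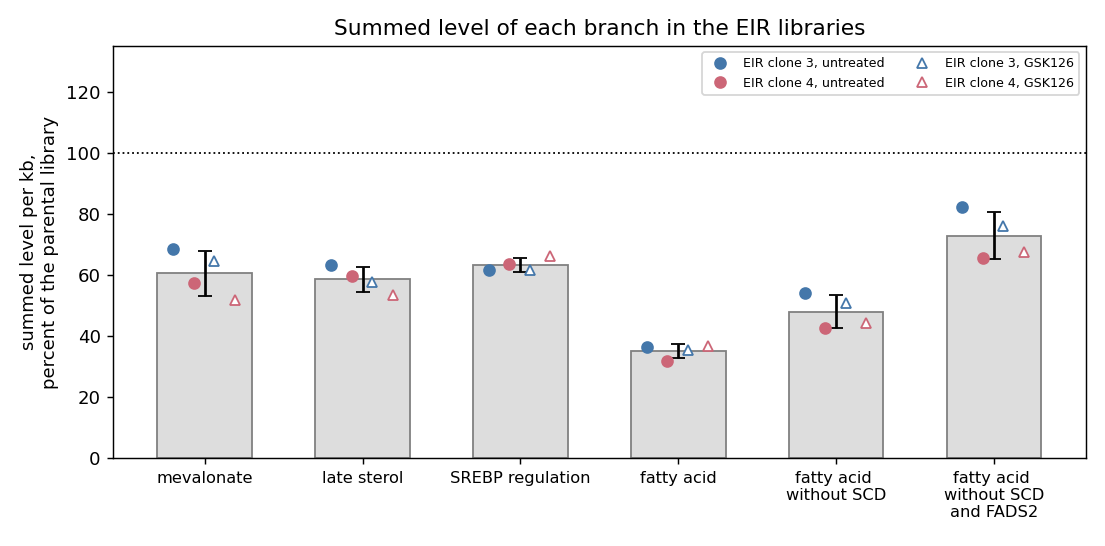
Summed level per kilobase of each branch in the EIR libraries, as a percent of the parental library (dotted line at 100). Bars are means and error bars SDs of the 4 EIR libraries, and points are single libraries. Fatty acid synthesis was lowest, at 35.1% of parental, and with SCD and FADS2 left out it was highest, at 72.9%.

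Each clone was also compared with the parental library in a fit of all 5 libraries, so both comparisons share that library and the spread. Within a clone the spread is that between its untreated and its GSK126-treated library, which holds any effect of GSK126. In clone 3, 18 members fell and 2 rose (14.5% and 14.7% of 16886 genes tested were called lower and higher). In clone 4, 21 members fell and 2 rose (18.3% and 14.7% of 16295). The same 18 members fell in both clones: ACAT2, MVD, IDI1, FDPS, FDFT1, SQLE, LSS, TM7SF2, HSD17B7, EBP, DHCR7, SREBF1, SREBF2, INSIG1, FASN, SCD, FADS1 and FADS2. How many of all genes were called lower in both clones was not counted, and both sets of calls use the same parental library. CYP51A1, MSMO1 and NSDHL were called lower in clone 4 and not in clone 3. SC5D rose in both. With the untreated or the treated library of clone 3 left out, 13 and 11 members were called in that clone.

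HMGCS1 rose in clone 3 (log2 fold change 1.13 ± 0.20, SE, adjusted p = 4.85e-07) and not in clone 4 (0.01 ± 0.20, SE, adjusted p = 0.98). INSIG2 rose in clone 4 (0.90 ± 0.26, SE, adjusted p = 0.00285) and had 0.27 ± 0.26 (SE, adjusted p = 0.508) in clone 3. Its clone 4 call held in 5 of 7 alternatives, with log2 fold changes of 0.32 to 1.03. With the GC correction the INSIG2 log2 fold change over the EIR libraries of both clones was 0.03 ± 0.41 (SE).

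The difference between the clones was tested within the EIR libraries, with GSK126 treatment as covariate. Of the 31 members, 2 were lower in clone 4 and 1 was higher, where 6.52% and 3.3% of 17708 genes tested were called lower and higher. HMGCS1 was lower in clone 4 by a log2 difference of -1.14 ± 0.17 (SE, adjusted p = 2.73e-09). FADS2 was also lower in clone 4 (-0.99 ± 0.32, SE, adjusted p = 0.0225), and SCD was higher there (0.69 ± 0.18, SE, adjusted p = 0.00187). INSIG2 (0.62 ± 0.23, SE, adjusted p = 0.0686) and ACAT2 (-0.58 ± 0.21, SE, adjusted p = 0.0682) did not pass the test. The clones also differed in EPCAM, given above, and the part of this in the differences was not tested.

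Under GSK126 no member passed the test in the 4 EIR libraries. Of 29847 genes tested, 1 was called (0.00335%), and at an unadjusted p under 0.05 there were 117 genes and no member. The 117 genes were 0.392% of those tested, fewer than chance alone gives at this threshold. This DESeq2 fit counts the difference between the clones as spread, so its lack of calls carries little information. edgeR called 0 genes. With the clone number as a replicate block, DESeq2 called 4 genes and no member, and 282 genes (0.945%) had an unadjusted p under 0.05, among them SCD and ACAT2. SCD had a log2 difference of 0.49 ± 0.18 (SE, adjusted p = 1.00) and ACAT2 of -0.45 ± 0.21 (SE, adjusted p = 1.00) in that fit.

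Within each clone the change was a ratio of 1 treated to 1 untreated library, so it is given as a description. In the mevalonate and late sterol branches together, 14 of 19 genes were lower under GSK126 in clone 3, 15 of 19 in clone 4, and 11 in both. Of all expressed genes, 41.3% were lower in clone 3, 55.2% in clone 4 and 22.4% in both. Over all members, 12 of 31 were lower in both clones and 8 higher in both, against 22.4% and 25.8% of 11564 expressed genes. The 19 sterol genes had a median log2 ratio of -0.16 in clone 3 and -0.11 in clone 4. Under scaling to total counts the clone 4 median was 0.04 and 5 genes were lower in both clones, and under TMM scaling 14 were. Of all expressed genes, 14.0% were lower in both clones under total count scaling and 26.9% under TMM scaling. The median of all expressed genes in clone 4 moved from -0.03 to 0.12 between the median-of-ratios and the total count scaling.

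ACAT2 had the lowest log2 ratio in clone 4, at -0.65, with -0.22 in clone 3. FDFT1 had the lowest in clone 3, at -0.42, with -0.11 in clone 4, and SQLE had -0.21 and -0.45. HMGCS1, IDI1 and MSMO1 were likewise lower in both. In the SREBP system SREBF1 had 0.10 and 0.32, and SREBF2 had -0.17 and 0.14, on opposite sides of 0. In fatty acid synthesis the medians were 0.06 and 0.26. SCD had 0.32 and 0.68, the larger of which took it from 4084 to 6553 normalized counts, still below the 25035 of parental cells. FASN had 0.09 and 0.54, and FADS2 had 0.51 and 0.05. None of these single-gene changes passed the test across clones.

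**Figure D4:**
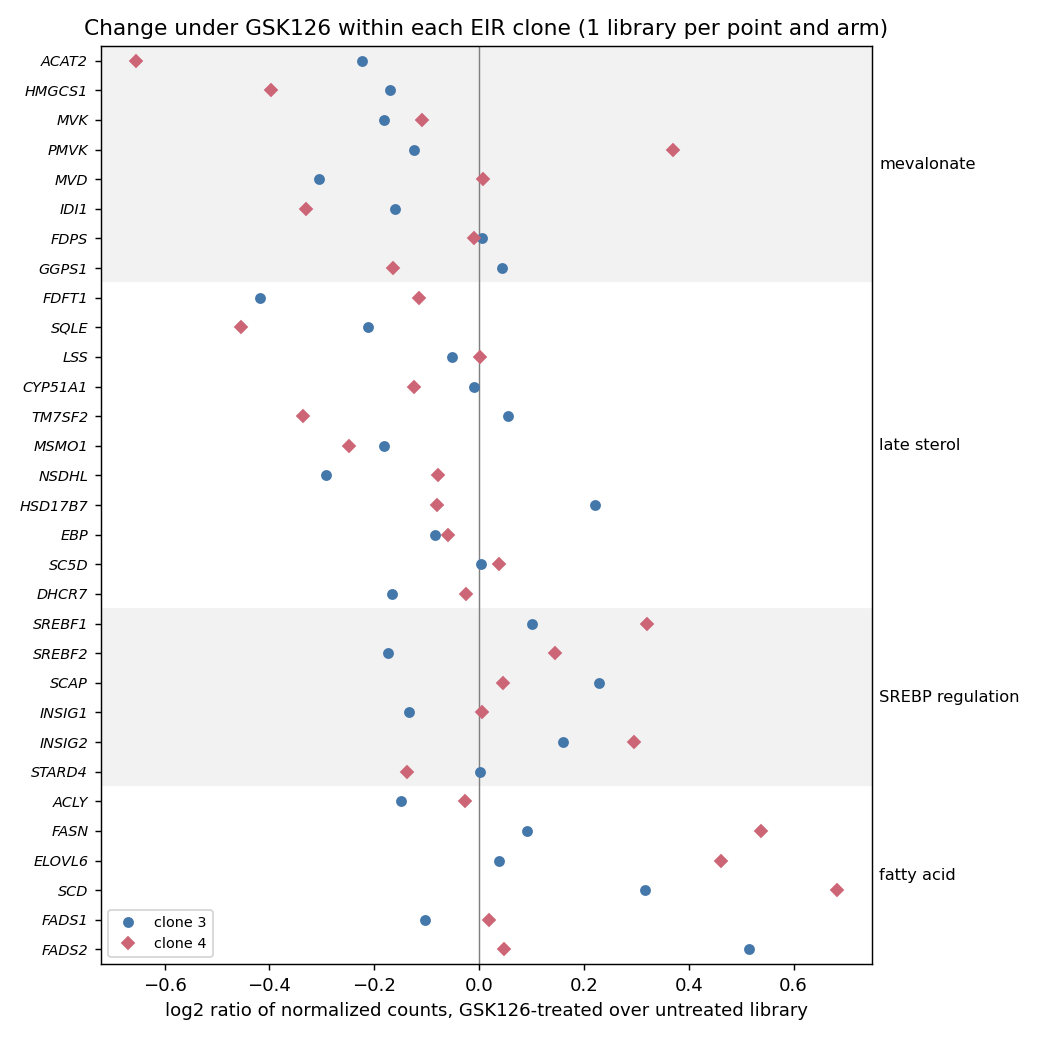
Log2 ratio of normalized counts of the GSK126-treated to the untreated library (x axis) in clone 3 (blue circles) and clone 4 (red diamonds) for each member, by branch. Of the 19 sterol genes 11 lie left of 0 in both clones, where 22.4% of all expressed genes were lower in both. SCD lies right of 0 in both, at 0.32 and 0.68.

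GC content moved with the difference between EIR and parental libraries. Over 11377 expressed genes the log2 ratio to parental changed by -0.50 to -0.38 per 10 percentage points of transcript GC in the 4 EIR libraries. With a GC correction in each library, 18 members fell, where 9.31% of all genes were called lower, and the median of the members was -0.68 against 0.08 over all genes tested. In this fit 14 of the 19 members that had fallen remained, MVK, PMVK, EBP, DHCR7 and FASN were lost, and SQLE, CYP51A1, MSMO1 and STARD4 were gained. FADS2 had a corrected log2 fold change of -4.41 ± 0.49 (SE), SCD of -2.52 ± 0.45, SREBF1 of -0.95 ± 0.33 and SREBF2 of -1.11 ± 0.20. Branch medians after correction were -0.57, -0.78, -0.70 and -0.72 for the mevalonate, late sterol, SREBP and fatty acid branches.

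**Figure D5:**
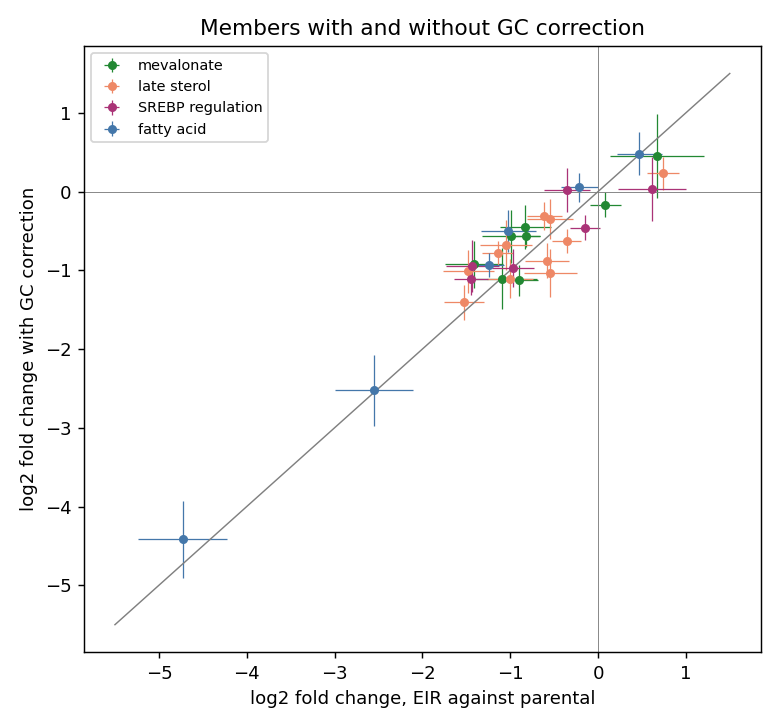
Log2 fold change of each member between EIR and parental cells without (x axis) and with (y axis) correction for GC content, with bars of 1 SE and the line of equality. FADS2 and SCD stay at -4.41 and -2.52, and SC5D moves from 0.74 to 0.23.

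Chromosomes differed in their median ratio to parental cells. Genes of chromosome 10, where SCD and IDI1 lie, had a median log2 ratio of -0.41 in both clones, and those of chromosome 22, where SREBF2 lies, had -0.30 in clone 3 and -0.31 in clone 4. Chromosome 17, with SREBF1, ACLY and FASN, had -0.18 and -0.23, and chromosome 16, with MVD, had -0.16 and -0.24. On chromosome 11, with FADS1, FADS2, TM7SF2, SC5D and DHCR7, the medians were -0.06 and -0.10. The part of these shifts in the members' changes was not tested.

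Genes around the pathway moved in both directions. Of the proteases that cleave SREBPs, MBTPS2 rose and MBTPS1 fell in EIR cells. MBTPS2, the second protease that frees SREBPs, had 281 normalized counts in the parental library and 499 to 778 in EIR libraries (log2 fold change 1.08 ± 0.33, SE, adjusted p = 0.0077). MBTPS1, the first protease, had 3792 and 2689 to 2976 (-0.41 ± 0.15, SE, adjusted p = 0.0279). The calls of MBTPS2 and MBTPS1 were lost with the GC correction (adjusted p = 0.158 and 0.27). MBTPS2 was called in 8 of 11 alternatives and MBTPS1 in 2.

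A further list held 21 genes, mostly of fatty acid supply, elongation and desaturation, and also LPIN1, TMEM97 and MMAB. Of these, 20 were tested, 6 fell and 1 rose, with a median of -0.49, where 13.2% of all genes were called lower and 12.4% higher. The largest were LPIN1, a phosphatidate phosphatase (-1.25 ± 0.23, SE, adjusted p = 1.58e-06), SLC25A1, the mitochondrial citrate carrier (-1.12 ± 0.19, SE, adjusted p = 7.17e-08), and ACSS2, cytosolic acetyl-CoA synthetase (-0.95 ± 0.23, SE, adjusted p = 0.000407). HACD3, a dehydratase of chain elongation, had -0.81 ± 0.19 (SE, adjusted p = 0.00027). ME1, malic enzyme, was the gene that rose (0.75 ± 0.17, SE, adjusted p = 0.000103), and it was named after its value was seen. Its call was lost with the GC correction (adjusted p = 0.23).

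Of 12 genes of sterol export, storage and sensing, 3 fell and 1 rose (median -0.44), beside the same 13.2% and 12.4% of all genes. MYLIP, a sterol-induced ubiquitin ligase, had 1361 normalized counts in the parental library and 393 to 723 in EIR libraries (-1.28 ± 0.36, SE, adjusted p = 0.00345). NPC2, a lysosomal cholesterol carrier, fell by 0.86 ± 0.24 on the log2 scale (SE, adjusted p = 0.00338), and STARD3, another sterol transfer protein, by 0.63 ± 0.22 (SE, adjusted p = 0.0204), a call lost with the GC correction (adjusted p = 0.595). The STARD3 call held in 2 of 11 alternatives. OSBPL8, an oxysterol-binding protein relative, rose by 0.86 ± 0.18 (SE, adjusted p = 2.39e-05).

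The branch of non-sterol isoprenoids, which uses the same precursors for dolichol, ubiquinone and protein prenylation, had 11 genes, of which 2 rose and 9 were not called (median 0.28), near the 12.4% of all genes called higher. PGGT1B, a subunit of the enzyme that attaches geranylgeranyl groups to proteins, had 697 normalized counts in the parental library and 1076 to 1360 in EIR libraries (0.83 ± 0.22, SE, adjusted p = 0.0011). NUS1, a subunit of the dolichol-forming prenyltransferase, had 1227 and 1683 to 2131 (0.58 ± 0.22, SE, adjusted p = 0.0366), and it was called in 3 of 11 alternatives (adjusted p = 0.859 with the GC correction). Under GSK126 no gene of these lists passed the test in DESeq2, and none had an unadjusted p under 0.05 without the replicate block. With it, ABCA1, a cholesterol exporter, had a log2 difference of 1.26 ± 0.57 (SE, adjusted p = 1.00) and was the one gene of these lists with an unadjusted p under 0.05. ABCA1 had 66.7 and 229 normalized counts in untreated and treated clone 3, and 17.3 and 26.4 in clone 4.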

How the data were processed

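Total RNA was sequenced from parental TOV21G cells (1 library) and EIR clones 3 and 4, untreated and treated with GSK126 (1 library each), with a stranded kit. The authors aligned paired-end reads of 75 nt to hg19 with bowtie2 and deposited RSEM expected counts per Ensembl gene, not normalized and all whole numbers (0 values were not whole). RSEM divides reads shared by overlapping genes or copies, and whether it used the strand is not given in the sources used here.

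Symbols, positions and GC content came from GENCODE 44 on GRCh37, which matched 29203 of 30476 identifiers (95.8%). DESeq2 1.42.0 in R 4.3.3 tested 5 comparisons over all genes. The tool and the 5% false discovery rate are those of the study, whose methods name it for resistant against parental cells. Per-library ratios used a pseudocount of 0.5, levels per kb the canonical transcript length, and expressed genes a mean of at least 100 normalized counts. The clone number marks the same cell line, so it pairs the treated and untreated libraries (correlation of deviations 0.862 over 11564 genes).

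Alternatives were edgeR 4.0.16, TMM and total count scaling, a filter of at least 10 counts in 2 libraries, GC correction (loess, span 0.5), leaving out each library, summed clone libraries, a treatment covariate, the replicate block and a pseudocount of 5. The summed fatty acid level without SCD, and without SCD and FADS2, was added after seeing the data. The DESeq2 fits of EIR against parental cells and of GSK126 were run on simulated counts. These were drawn for independent libraries without clones or a GC trend, so they do not measure the error rates in these data. Samples were grouped by their labels, and the single column with no clone number was read as the parental library. Nothing in the labels says that libraries came from separate cultures, so p-values measure the spread between these libraries. All members are named, and in the other lists at most 4 called genes with the largest log2 fold change. Some results for single genes of the surrounding lists are not reported here. The members and lists were chosen with earlier results of these data known.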

Additional observations from a re-analysis of the deposited data

Results flagged for a closer look

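In 3 members the change against parental cells differed between the clones in the test within the EIR libraries. HMGCS1 had a log2 difference of clone 4 minus clone 3 of -1.14, with changes against parental of 1.13 in clone 3 and 0.01 in clone 4. SCD had 0.694, with -2.97 in clone 3 and -2.23 in clone 4. FADS2 had -0.99, with -4.31 in clone 3 and -5.32 in clone 4.

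SREBF2 had log2 ratios of the treated to the untreated library on opposite sides of 0, at -0.17 in clone 3 and 0.14 in clone 4, a difference of 0.318. Each ratio rests on 1 library per condition, the difference between the clones was not tested, and SREBF2 did not pass the test of GSK126 over both clones (adjusted p = 1.00 in DESeq2). It was picked out against counting error alone, which leaves out the spread between libraries. No member had an EIR library that stood apart from the other 3 by the gap-to-range criterion, which chance meets in about 1 group in 20. That rate holds for independent libraries. The EIR libraries are pairs from the same clones, so the absence of such a library says little.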

How the results depend on the processing

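Between EIR and parental cells 20 members were called, and 13 with the treatment covariate. The other alternatives gave 15 to 21, and leaving out 1 EIR library 17 to 18. Over all genes 4157 were called, and 2024 in edgeR, 1914 with clone libraries summed and 1998 with the treatment covariate. In clone 3 leaving out a library gave 11 to 13 members and 1983 to 2309 genes, against 20 and 4925. Between the clones 3 members were called, and 5 in edgeR. Under GSK126 no member was called in any alternative. All-gene calls there were 1 in DESeq2, 0 in edgeR, 4 with the replicate block, 7 with the replicate block and GC correction, and 1 to 25 with 1 library left out (25 without the untreated library of clone 3). The replicate block changed no other call. The causes were not tested.

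Signs turned in members that were not called. With GC correction the log2 fold changes of GGPS1, SCAP and ACLY in EIR cells were -0.17, 0.024 and 0.052, that of INSIG2 in clone 3 was -0.33 and that of HMGCS1 in clone 4 was -0.22. HMGCS1 in clone 4 had -0.00451 under TMM scaling and -0.21 to 0.20 with 1 library left out. Under GSK126 the sign differed in 39 of 372 refits of a member, with 0 called. A pseudocount of 5 moved no per-library log2 ratio of a member by more than 0.039. Leaving out a library between the clones was not run, since 3 libraries leave no residual degrees of freedom. The 1 parental library leaves the spread among parental cells unmeasured.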
